A study of Mus musculus with 4 samples.

Results

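The 10 genes described here are the acute-phase genes Saa1, Saa2, Saa3, Orm1, Lcn2, Hp and Lbp, and the genes Stat3, Socs3 and Il6ra of the signalling path that drives them. They were taken by gene symbol, and each of the 10 symbols matched 1 row of the 54838 genes listed per library. The samples are cultures of Hepa1-6, a line from a mouse liver tumour, whose RNA was read by sequencing. The 2 NC libraries are labelled wild type for Acvr2a, a type II receptor gene for activin, and the 2 KO libraries are labelled Acvr2a knockout; both groups are the same line and no treatment is named for either. The design text speaks of knockout subclones, without saying whether KO 1 and KO 2 are separate subclones, so the p-values measure only the spread between these cultures, which may be technical.

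The acute-phase response is the change in liver protein output that follows infection or injury. Interleukin-6 (IL-6) binds its receptor, encoded by Il6ra, which joins the shared signalling chain gp130, encoded by Il6st. Janus kinases (JAKs) on gp130 then activate the transcription factor STAT3, STAT3 switches on acute-phase genes together with C/EBP and NF-kB factors, and SOCS3, itself a STAT3 target, shuts the receptor complex down. Serum amyloid A is encoded by the Saa genes. Its forms from Saa1 and Saa2, orosomucoid (Orm genes) and haptoglobin (Hp) are secreted by hepatocytes in large amounts during the response. Lipocalin-2 (Lcn2) withholds bacterial iron carriers, and LPS-binding protein (Lbp) delivers bacterial lipopolysaccharide (LPS) to its receptors.

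Library totals lay between 11597923 and 13910582 counts. Acvr2a expected counts were 81.0 and 108.4 for NC against 74.7 and 97.4 for KO (log2 fold change -0.21, SE 0.20, edgeR adjusted p = 0.433), so its RNA level did not separate the groups and the names below follow the labels. Of 12510 genes tested with edgeR, 4741 (37.9%) passed an adjusted p of 0.05, 2459 (19.7%) higher and 2282 (18.2%) lower in KO; with limma on log2(TPM + 1) of the same genes the split was 1467 higher and 691 lower, and without the filter it called 0 genes, with 4506 of 20640 at an unadjusted p under 0.05. The shares of 37.9%, 19.7% and 18.2% are the background for the counts of each gene list below. Liver tumour markers were present, with Alb at 473 to 713 TPM (a level scaled for gene length and library size) and Krt18, Krt8, Trf, Afp and Hnf4a at 1433 counts or more in every library, although Ttr had 0 or 1 count. Of 10 such markers 9 were tested: Gpc3 rose by 2.74 on the log2 scale (21 and 17 counts to 131 and 141), as did Alb and Trf by less, Afp (-1.21), Hnf4a (-0.995) and Foxa2 (-0.89) fell, and 3 did not pass. Leukocyte RNA was near the detection limit for most of 12 markers: 4 had 0 counts in every library, Ptprc had 0, 1, 2 and 2 counts, and Cd68 (252 and 338 counts, NC; 623 and 812 counts, KO) made up most of a summed 24.9 to 29.1 TPM in NC and 58.6 to 70.0 TPM in KO. Of 7 stellate and fibroblast markers, Col1a1 (6 and 5 counts, NC; 38 and 41 counts, KO), Pdgfra and Des rose. Lrat had 0 counts, and Col1a2 and Pdgfrb had at most 2 counts in any library. Dcn stood at 1032 to 1234 TPM in all libraries and did not pass (log2 0.16, edgeR adjusted p = 0.193). The summed level, most of it Dcn, was 1036 to 1098 TPM in NC and 1241 to 1244 TPM in KO. Its part in the results was not tested.

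The secreted acute-phase genes Saa1, Saa2, Saa3 and Orm1 had no reads in either group, and Hp had almost none. Lbp was higher in KO by 2.41-fold and Stat3 by 1.56-fold, while Socs3, Il6ra and Lcn2 did not pass the test. So 5 of the 10 genes passed the filter on low counts and 2 of those 5 passed the threshold, against 37.9% of all genes tested, so that share says nothing particular about the members.

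**Figure D1:**
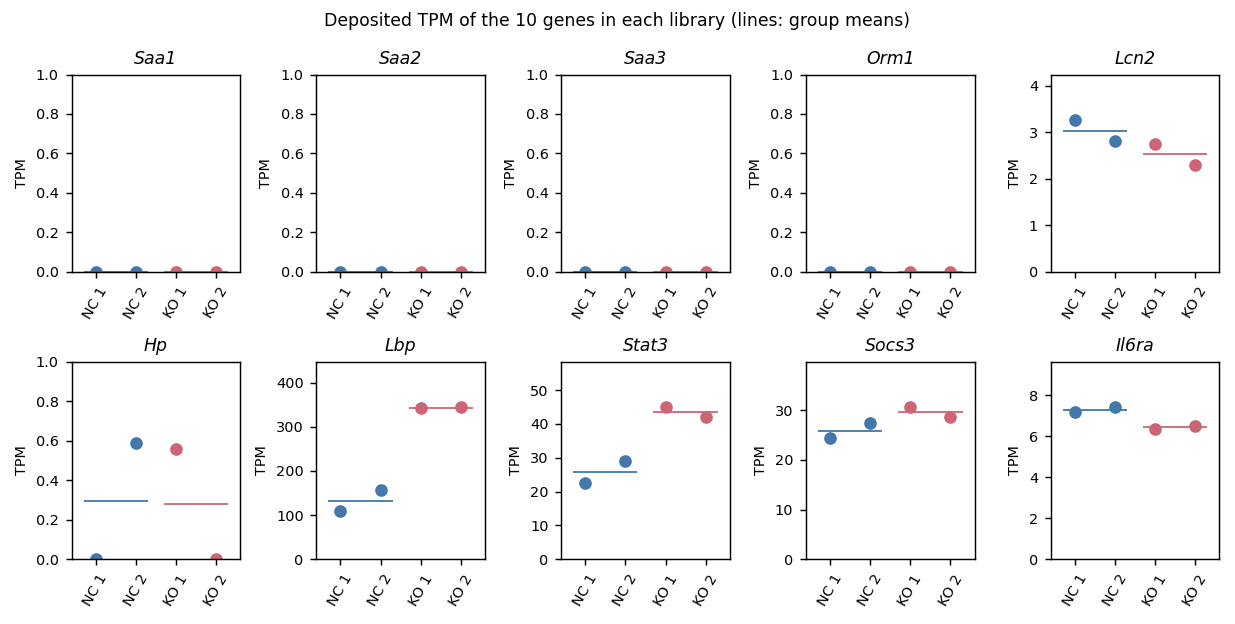
Deposited TPM (vertical axis, linear from 0) of each of the 10 genes in the libraries NC 1, NC 2, KO 1 and KO 2 (horizontal axis), with points for libraries and lines for group means. Both KO points lie above both NC points for Lbp, Stat3 and Socs3 and below them for Lcn2 and Il6ra, and only Lbp and Stat3 passed the test. Of all genes tested, 69.4% did not overlap between the groups in CPM. Saa1, Saa2, Saa3 and Orm1 lie at 0 throughout.

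Upstream sequences are shown for 4 members, Stat3 because it rose, Socs3 because it is the feedback inhibitor that did not pass, and Saa1 and Saa3 as genes with no reads. They are the 250 bases before the RefSeq gene start (build GRCm38.p6), given 5′ to 3′ on the gene's strand. RefSeq and GENCODE starts differ for some members. By the GENCODE coordinates given below, the Socs3 window lies inside the gene and the Saa3 window partly inside it. The same holds for Lcn2, wholly inside, and Saa2, partly inside. Of the 10 members 7 were matched by symbol; Orm1, Hp and Lbp were not. Capitals mark matches, on either strand, to TTCNNNGAA (the palindromic STAT pattern), TTNNGNAA (a loose C/EBP pattern), GGGA and CC set 4 bases apart (a kB pattern) or CTGGGAA (a short element of liver acute-phase genes).
Stat3, minus strand, chr11:100939541-100939790: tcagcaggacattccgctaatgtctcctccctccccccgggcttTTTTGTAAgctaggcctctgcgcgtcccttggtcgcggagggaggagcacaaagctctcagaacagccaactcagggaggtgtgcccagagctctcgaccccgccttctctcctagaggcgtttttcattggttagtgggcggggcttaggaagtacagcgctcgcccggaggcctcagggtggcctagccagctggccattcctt
Socs3, minus strand, chr11:117969367-117969616: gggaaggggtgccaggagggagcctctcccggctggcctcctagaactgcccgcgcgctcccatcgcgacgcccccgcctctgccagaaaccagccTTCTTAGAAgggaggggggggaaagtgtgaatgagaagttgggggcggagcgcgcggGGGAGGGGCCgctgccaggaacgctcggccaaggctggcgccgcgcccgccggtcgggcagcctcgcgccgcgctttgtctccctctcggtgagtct
Saa1, minus strand, chr7:46742981-46743230: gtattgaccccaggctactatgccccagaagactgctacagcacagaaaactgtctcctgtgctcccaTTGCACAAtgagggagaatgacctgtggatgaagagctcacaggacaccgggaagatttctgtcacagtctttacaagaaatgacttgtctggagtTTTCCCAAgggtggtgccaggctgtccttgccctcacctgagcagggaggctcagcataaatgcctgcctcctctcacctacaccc
Saa3, minus strand, chr7:46715677-46715926: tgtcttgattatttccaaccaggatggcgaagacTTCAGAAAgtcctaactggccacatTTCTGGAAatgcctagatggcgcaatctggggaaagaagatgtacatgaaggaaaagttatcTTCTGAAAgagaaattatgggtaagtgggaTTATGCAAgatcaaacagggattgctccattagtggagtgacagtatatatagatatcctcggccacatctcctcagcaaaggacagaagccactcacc

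The STAT pattern occurred in 1 of the 7 matched members, Socs3, as TTCTTAGAA beginning 154 bases before the RefSeq start. By GENCODE coordinates this match lies inside the gene. It occurs in 7.02% of the 32851 promoter windows of that length in the table. The C/EBP pattern, held by 36.8% of all windows, occurred in the other 6, with 4 matches in Saa3, 2 each in Saa1 and Il6ra, and 1 each in Saa2, Lcn2 and Stat3. The kB pattern (17.6% of windows) occurred once in Socs3 and once in Il6ra, as GGGAGGGGCC in both, and CTGGGAA (9.10% of windows) in none. No matches overlapped each other. The Saa1 and Saa2 windows shared 238 of 251 aligned positions (94.8%), whereas Saa1 and Saa3 shared 48.5%. These are descriptions of letters in a window, not of bound sites.

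Serum amyloid A and orosomucoid are described first among the acute-phase genes. Saa1 (ENSMUSG00000074115.5, chromosome 7, 46740497 to 46742980), Saa2 (chromosome 7, 46751790 to 46754313) and Saa3 (chromosome 7, 46711998 to 46715700) each had 0 counts in NC 1, NC 2, KO 1 and KO 2. Orm1 (chromosome 4, 63344560 to 63348163) likewise had 0 counts in all 4 libraries. A count of 0 allows up to 3 counts per library, that is 0.217 to 0.264 CPM (counts scaled to TMM-adjusted library size), or 0.188 to 0.218 TPM for Saa1 and 0.455 to 0.523 TPM for Orm1. No fold change is given for these genes, because both groups lie at or under that limit. Their paralogs Saa4, Orm2 and Orm3 had 0 counts in every library as well. Saa1 and Saa2, and the Orm genes among themselves, are close copies between which RSEM shares reads, but with 0 counts on every copy no reads were there to be shared.

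Haptoglobin, which binds free haemoglobin, was at the edge of detection. Hp (chromosome 8, 109575128 to 109579172) had 0 counts (NC 1), 8 (NC 2), 7 (KO 1) and 0 (KO 2), or 0, 0.59, 0.56 and 0 TPM. The groups overlapped completely, with 1 library of each at 0, and the gene fell under the filter.

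Lcn2 (chromosome 2, 32384633 to 32388252) was low but present. It had 25 counts (NC 1), 23 (NC 2), 21 (KO 1) and 19 (KO 2), or 3.26, 2.80, 2.75 and 2.30 TPM. Scaled to library size, NC stood at 1.93 ± 0.38 CPM and KO at 1.50 ± 0.13 CPM (SD, n = 2). The log2 fold change was -0.35 (SE 0.39, 95% interval -1.15 to 0.45, adjusted p = 0.504). The interval runs from a fold of 0.451 to 1.36, so neither a fall nor a rise within those limits is excluded.

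Lbp was the most abundant of the 10 genes and the member with the largest difference. Lbp (ENSMUSG00000016024.9, chromosome 2, 158306493 to 158332852, plus strand, 15 merged exons) had 1285 counts (NC 1), 1728 (NC 2), 3655 (KO 1) and 3999 (KO 2). In TPM these were 108.2, 155.7, 342.9 and 344.2. Both KO libraries were well above both NC libraries, and the groups did not overlap. The level went from 118.9 ± 8.31 CPM to 286.7 ± 13.2 CPM (SD, n = 2). That is 1.27 on the log2 scale, with SE 0.093, a 95% interval of 1.08 to 1.46 and edgeR adjusted p = 5.25e-11. A larger log2 fold change was seen for 4.16% of the genes tested. NC 1 and NC 2 stand further apart in TPM than in CPM. The length RSEM assigned to Lbp, which weights its transcripts by use, was 1349 bases in NC 1 against 1137, 1180 and 1195 bases in NC 2, KO 1 and KO 2. With limma at log2(TPM + 1), unfiltered, which called 0 genes, Lbp was 1.40 higher with adjusted p = 0.0854.

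Lbp acts at the head of LPS recognition, and the genes it works with moved the other way. Cd14, the co-receptor that takes LPS from LBP, went from 309 and 319 counts to 198 and 163, with no overlap after scaling, and fell by 0.89 (log2, SE 0.15, adjusted p = 2.52e-05). Tlr4, the signalling receptor, went from 313 and 324 counts to 220 and 275 and fell by 0.45 (SE 0.14, adjusted p = 0.0104). Ly96, which encodes MD-2, the LPS-binding partner of TLR4, went from 34 and 23 counts to 11 and 12 and fell by 1.40 (SE 0.44, adjusted p = 0.0116). The calls for Tlr4 and Ly96 were lost without NC 1 and without KO 1, and that of Ly96 also without KO 2. Without NC 1 the log2 fold changes of Tlr4 and Ly96 were -0.34 and -0.95, and without KO 1 they were -0.32 and -1.36. Ly96 without KO 2 was -1.45, against -1.40 with all libraries. A fit with fewer libraries has less power, so a lost call does not show that 1 library carried the difference. DESeq2 gave adjusted p of 0.0598 for Tlr4 and 0.0860 for Ly96, and Tlr4 was also not called on TPM.

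The wider list of 14 genes for IL-1, TNF and LPS input had 11 tested, of which 5 fell, 1 rose and 5 did not pass, with a median log2 fold change of -0.088 against -0.0037 over all genes tested. Il1r1, the IL-1 receptor, fell by 0.52 (SE 0.13; not past 0.05 on TPM, with adjusted p = 0.108 for log2(TPM + 1)), and Il1rn, the secreted IL-1 receptor antagonist, fell by 1.20 (SE 0.21), from 138 and 132 counts to 55 and 70; Il1rn also stands on the next list. Tnfrsf1b rose by 0.42 (SE 0.14, adjusted p = 0.0199), a call lost without NC 2 (0.34, adjusted p = 0.130) or without KO 1 (0.30, adjusted p = 0.158) and with DESeq2 (adjusted p = 0.104). The cytokine genes themselves were barely read: Il1b had 0 counts in every library, Il1a 0, 0, 1 and 1, and Tnf 0, 3, 3 and 5.

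Other acute-phase proteins were examined to place the 10 genes. Of 30 such genes outside the members, 11 were tested, 19 fell under the filter and 12 had no count in any library once expected counts were rounded, among them Crp, Apcs, Serpina3n, Itih3 and Itih4. Among the 11 tested, 6 rose, 4 fell and 1 (Agt) did not pass, with a median log2 fold change of 0.60. C3, the central complement protein, rose by 1.48 (SE 0.093), from 2769 and 3579 counts to 8910 and 9796, with adjusted p = 3.00e-12. The metallothioneins Mt1 and Mt2, zinc-binding proteins induced by metals, glucocorticoids and IL-6, rose by 0.86 (SE 0.096) and 1.69 (SE 0.11). In TPM, Mt2 was at 90.2 and 103.1 in NC and 308.6 and 341.9 in KO.

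Fgl1, a hepatocyte-secreted fibrinogen-like protein gene, rose by 1.14 (SE 0.18), from 66 and 93 counts to 172 and 198. The other risers were Steap4, at 2.11 (SE 0.44), and Cp, the copper carrier ceruloplasmin, at 0.60 (SE 0.12). Steap4 had the largest rise of this list, at low counts, from 8 and 10 to 33 and 50. On the falling side, Hpx, which encodes the haem carrier hemopexin, dropped from 215 and 230 counts to 41 and 51, with a log2 fold change of -2.36 (SE 0.20). Cfb, a complement factor, fell by 0.81 (SE 0.13), and Fgb, the fibrinogen beta chain, by 0.75 (SE 0.13). Its partner chains were nearly silent, with 0, 1, 2 and 0 counts for Fga and 1, 0, 0 and 0 for Fgg. Cfb shares exons with a predicted gene on its strand, Mt2 with one on the opposite strand and Cp with Hps3, so their totals are uncertain, and Mt1 and Mt2 are close relatives.

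Proteins that fall in an acute-phase response were a separate list of 10. Of the 6 tested, Alb (0.41, SE 0.10) and Trf (0.54, SE 0.091) rose, Rbp4, the retinol carrier, fell by 0.39 (SE 0.091; not past 0.05 on TPM, with adjusted p = 0.0717 for log2(TPM + 1)), and 3 did not pass. Trf shares exons with a predicted gene on its strand. Neither the positive nor the negative list moved in a single direction.

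**Figure D2:**
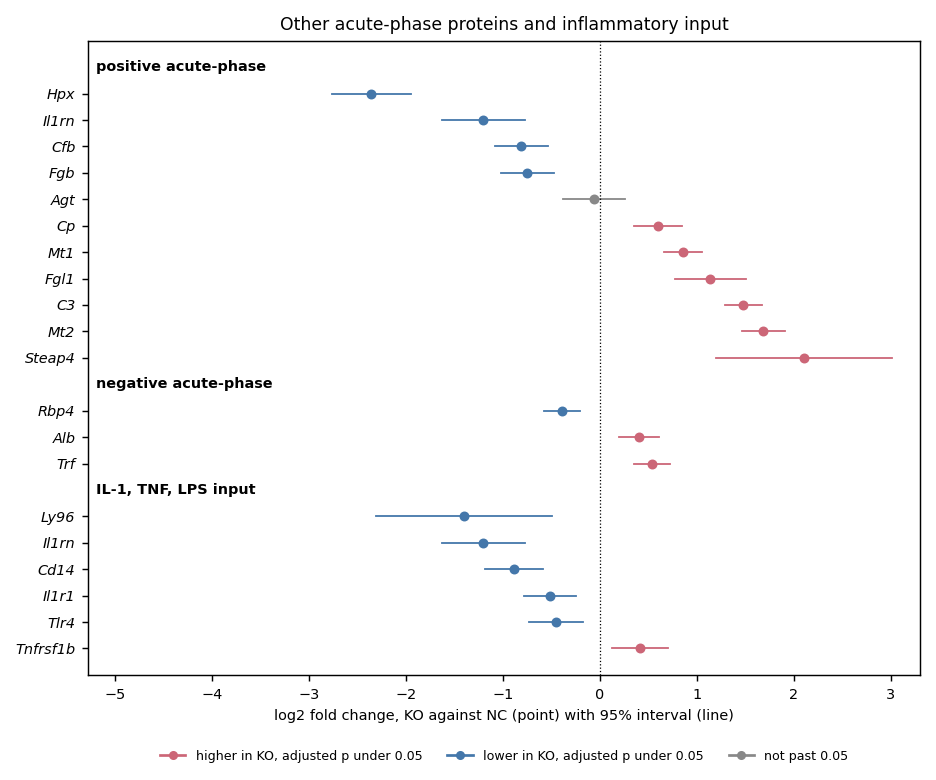
Log2 fold change between KO and NC (horizontal axis; points, with lines for 95% intervals) of acute-phase genes outside the members and of genes for IL-1, TNF and LPS input, as described in the text (vertical axis). Hpx lies lowest at -2.36, Mt2 and C3 lie at 1.69 and 1.48, and Cd14, Tlr4 and Ly96 lie left of 0.

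On the signalling side, the transcription factor gene itself rose. Stat3 (ENSMUSG00000004040.16, chromosome 11, 100885098 to 100939540, minus strand, 21 merged exons) had 959 counts (NC 1), 1225 (NC 2), 1767 (KO 1) and 1826 (KO 2), or 22.5, 28.9, 44.9 and 42.1 TPM. Both KO libraries were above both NC libraries on either scale. The level went from 86.4 ± 2.90 CPM to 134.7 ± 0.75 CPM (SD, n = 2). On the log2 scale the rise was 0.64, with SE 0.092, a 95% interval of 0.45 to 0.83 and edgeR adjusted p = 4.61e-06, and 12.1% of genes tested rose by more. Without a filter on TPM it was 0.75 with adjusted p = 0.110. As with Lbp, the length assigned by RSEM was greatest in NC 1, at 4221 bases against 3658 to 3803 in the other libraries. Stat3 shares 72 of its 9527 exonic bases with Stat5a on the opposite strand, and whether counting used strand is not given in the sources used here.

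Socs3, the feedback inhibitor, did not pass the test. Socs3 (chromosome 11, 117966079 to 117970047) had 602 counts (NC 1), 785 (NC 2), 787 (KO 1) and 797 (KO 2), or 24.4, 27.4, 30.6 and 28.6 TPM. The KO libraries were slightly above the NC libraries, at 59.4 ± 0.52 CPM against 54.8 ± 2.64 CPM (SD, n = 2). With a log2 difference of 0.11 (SE 0.098) and a 95% interval of -0.086 to 0.31, it did not pass (adjusted p = 0.379). The upper end of the interval corresponds to a 1.24-fold rise.

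Il6ra, the IL-6 binding receptor chain, had the reverse order. Il6ra (chromosome 3, 89864059 to 89913196) had 340.9 expected counts (NC 1), 423.9 (NC 2), 315 (KO 1) and 356 (KO 2), or 7.16, 7.40, 6.34 and 6.50 TPM. Both KO libraries were below both NC libraries, at 25.1 ± 1.73 CPM against 30.3 ± 0.44 CPM (SD, n = 2). The log2 fold change was -0.27 (SE 0.12), with a 95% interval of -0.51 to -0.026. Its edgeR p adjusted over all genes tested was 0.0743, so it was not called. Of its 8642 exonic bases, 242 are shared with a predicted gene on the opposite strand that had at most 10.1 counts in a library.

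Ordered by TPM, the members ran from Lbp through Stat3 and Socs3 to Il6ra, Lcn2 and Hp, with the silent genes last. In NC the ranges of Stat3 (22.5 to 28.9 TPM) and Socs3 (24.4 to 27.4 TPM) overlapped. In KO they did not, with Stat3 at 42.1 to 44.9 TPM and Socs3 at 28.6 to 30.6 TPM. The other neighbours in the order did not overlap in either group, except Hp and the silent genes. All 5 tested members had CPM values that did not overlap between the groups, as had 69.4% of all genes tested. In these bulk cultures, fewer cells of a type and less RNA per cell cannot be told apart.

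The ligands of the IL-6 family were mostly unread. Il6 had a single count, in KO 1, Osm and Ebi3 had 0 throughout, Il11 had 6, 6, 11 and 9, and Ctf1 and Il27 had at most 1 count in a library. Lif counts were 282 and 308 for NC against 248 and 256 for KO, with a log2 difference of -0.31 (SE 0.13, adjusted p = 0.0599), and Cntf differed by 0.057 (SE 0.30, adjusted p = 0.904). Clcf1, a ligand of the CNTF receptor, fell by 0.41 (SE 0.12, adjusted p = 0.00543), from 401 and 470 counts to 352 and 340. On log2(TPM + 1) its change was -0.81. Clcf1 shares exons with a predicted gene on its strand.

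The receptor list held gp130, its partner chains and chains of IL-10, IL-22 and leptin receptors. Of its 11 genes 8 were tested, 4 rose, 1 fell and 3 did not pass, with a median log2 fold change of 0.48. Osmr, the oncostatin M receptor chain, had 60 counts (NC 1), 78 (NC 2), 221 (KO 1) and 308 (KO 2), or 1.18, 1.20, 5.28 and 7.09 TPM. The KO libraries differed between themselves but both were far above NC, by 1.86 on the log2 scale (SE 0.18, edgeR adjusted p = 6.97e-09). Lifr, the LIF receptor chain, rose by 0.55 (SE 0.098, and by 0.84 on log2(TPM + 1)), from 16.5 and 18.3 TPM to 31.0 and 33.0 TPM.

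Il6st, the gp130 gene, went from 686 and 1058 counts to 1204 and 1237, or from 8.34 and 12.03 TPM to 15.6 and 14.2 TPM. It rose by 0.42 (SE 0.10, adjusted p = 0.00223), but NC 1 was the low library: without it the log2 fold change was 0.25 (adjusted p = 0.135), and in the filtered TPM fits the adjusted p was 0.0847 and 0.0835. Il11ra1 rose by 0.65 (SE 0.17), a call lost without NC 2 (0.52, adjusted p = 0.0636) and in the TPM fits, and its exons overlap Ccl27a on the opposite strand. Il10rb, a receptor chain shared by IL-10 and IL-22, fell by 0.41 (SE 0.11), lost without NC 1 (-0.34, adjusted p = 0.0579) and in the TPM fits, and shares exons with a predicted gene on its strand. Il22ra1 (0.29) and Cntfr (1.10) did not pass, with adjusted p of 0.124 and 0.142, and Il27ra and Il10ra had 0 counts throughout.

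Kinases and the other STAT genes divided by member. Of 10 genes 9 were tested, 4 rose, 1 fell and 4 did not pass, with a median of 0.22. Of the kinases that serve gp130, Jak1 differed by 0.056 (log2, SE 0.092, adjusted p = 0.667) and Jak2 by 0.22 (SE 0.090, adjusted p = 0.0531), while Tyk2 rose by 0.43 (SE 0.14, adjusted p = 0.0132), a call lost without KO 2 (0.32, adjusted p = 0.146), in the TPM fits and with DESeq2 (adjusted p = 0.0770). Jak3, which serves the common gamma-chain cytokine receptors, rose by 1.07 (SE 0.12), from 6.48 and 5.62 TPM to 13.1 and 14.2 TPM, and shares exons with Insl3 on its strand.

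Stat5a, the neighbour of Stat3, rose by 0.80 (SE 0.11), from 275.2 and 326.0 expected counts to 524.6 and 583.9. Stat2, a mediator of type I interferon signals, rose by 0.59 (SE 0.14, and by 0.96 on log2(TPM + 1)). Stat6, which answers IL-4 and IL-13, fell by 0.24 (SE 0.090, adjusted p = 0.0321), a call lost without NC 1 (-0.27, adjusted p = 0.0836), NC 2 (-0.22, 0.171) or KO 2 (-0.23, 0.0910). It was also lost with upper-quartile scaling (0.0526), with library size alone (0.0817) and on TPM. Stat5b (0.14, adjusted p = 0.305) did not pass.

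Of the inhibitors of the pathway, all 15 listed genes besides Socs3 were tested. Among these 12 did not pass, as did 7769 of all 12510 genes tested not pass. Socs2, known for restraining growth hormone signals, rose by 0.53 (SE 0.17, adjusted p = 0.0124), and Pias1 rose by 0.37 (SE 0.12, adjusted p = 0.0135), while Pias4 fell by 0.34 (SE 0.11, adjusted p = 0.0127). These 3 calls were lost with DESeq2 (adjusted p of 0.0916, 0.0687 and 0.0603), on TPM and without NC 1 (0.0795, 0.0730 and 0.158), and those of Pias1 and Pias4 also without KO 2, where Pias1 was 0.17 and Pias4 -0.26. Socs1 had 60, 69, 74 and 66 counts, with a log2 difference of 0.035 (SE 0.23, adjusted p = 0.925).

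**Figure D3:**
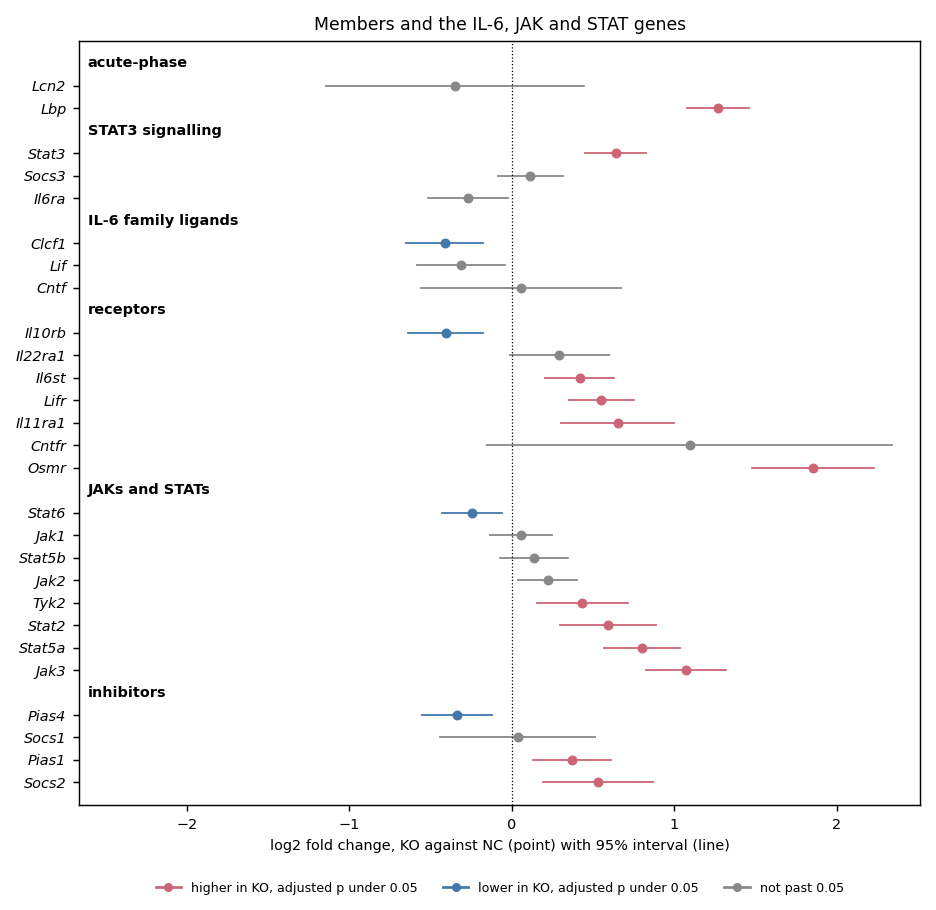
Log2 fold change between KO and NC (horizontal axis; points, with lines for 95% intervals) of the 5 tested members and of the ligands, receptors, kinases, STATs and inhibitors described in the text (vertical axis, grouped). Osmr lies at 1.86, Lbp lies at 1.27 and Stat3 at 0.64, and the line of Socs3 crosses 0.

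Genes that STAT3 is known to induce were compared next, since the RNA level of Stat3 does not measure the activated protein. Of 22 such genes 20 were tested, 8 rose, 3 fell and 9 did not pass (all genes tested: 19.7% rose and 18.2% fell), with a median of 0.19 against -0.0037; some also answer NF-kB or low oxygen. Vegfa, the angiogenic factor, rose by 0.93 (SE 0.091) and Il4ra, the IL-4 receptor chain, by 1.14 (SE 0.16), from 95 and 144 counts to 241 and 313. Icam1, an adhesion molecule, rose by 0.57 (SE 0.092), Tnfaip3, an NF-kB inhibitor, by 0.53 (SE 0.10) and Ier3, an early-response survival gene, by 0.50 (SE 0.093). Pim3, a survival kinase, fell by 0.55 (SE 0.094), from 1522 and 1743 counts to 1227 and 1137.

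Bcl3, an IkB-family cofactor, fell by 0.50 (SE 0.10) and Ccnd1, cyclin D1, by 0.43 (SE 0.096). In TPM the groups overlapped for Ccnd1, with 305 and 349 in NC against 329 and 230 in KO. The survival genes Mcl1 (0.11, adjusted p = 0.371) and Bcl2l1 (-0.082, adjusted p = 0.4999) and the early gene Junb (0.079, adjusted p = 0.552) did not pass. Lrg1, an acute-phase glycoprotein gene of the earlier list, was too low to test, with 0, 2, 7 and 10 counts. The targets thus did not move in a single direction. Icam1, Il4ra and Bcl3 overlap predicted genes on the opposite strand, and Ccnd1 overlaps LTO1 there.

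The list of liver inflammatory regulators, which holds transcription factor genes and also an inhibitor gene, Nfkbia, went in both directions as well. Among 10 tested, 3 were higher, 3 lower and 4 not past 0.05, with a median of -0.050. Cebpb, a C/EBP factor induced in inflammation, rose by 0.57 (SE 0.11), from 502.5 and 675.7 expected counts to 997.3 and 853.3; 312 of its 1504 exonic bases are shared with Tmem189 on the opposite strand. Cebpd, its relative, had 62.9, 61.4, 61.5 and 57.0 expected counts and differed by -0.16 (log2, SE 0.25, adjusted p = 0.645). The NF-kB inhibitor gene Nfkbia rose by 0.84 (SE 0.099) and Nfkbiz, an IkB-family coactivator, by 0.57 (SE 0.11), while Nfkb1, a subunit gene, fell by 0.51 (SE 0.098, not past 0.05 on TPM, with adjusted p = 0.0849 for log2(TPM + 1)). Hnf4a, a hepatocyte regulator of plasma protein genes, fell by 0.995 (SE 0.093).

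**Figure D4:**
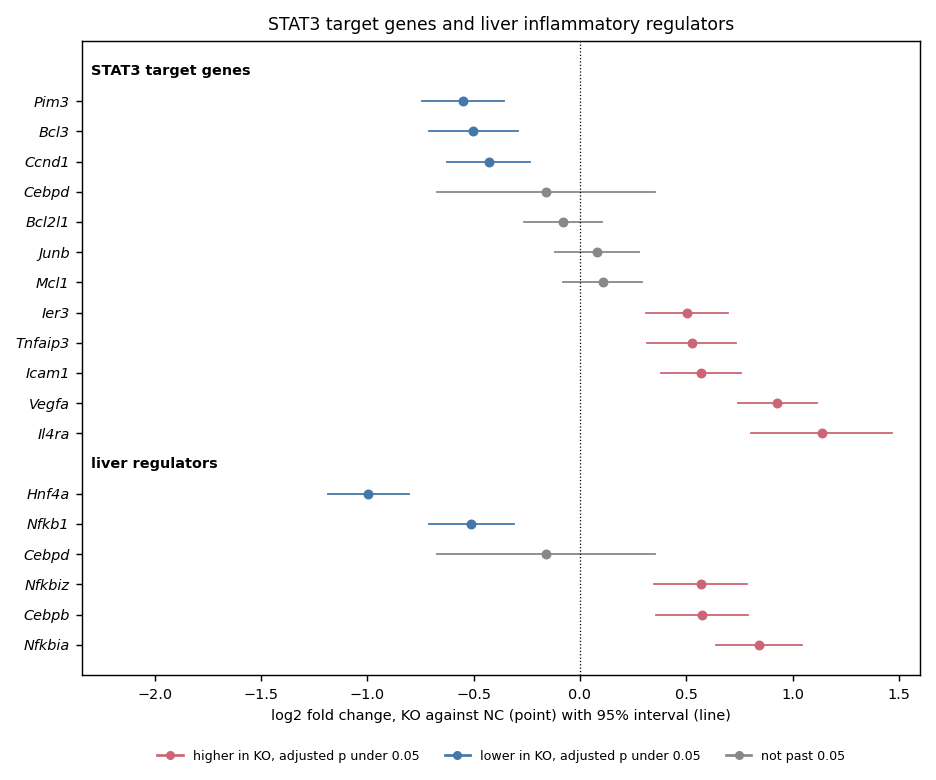
Log2 fold change between KO and NC (horizontal axis; points, with lines for 95% intervals) of the STAT3 target genes and liver inflammatory regulators described in the text (vertical axis). Il4ra and Vegfa lie at 1.14 and 0.93, Pim3 at -0.55 and Hnf4a at -0.995, and the lines of Mcl1, Junb and Bcl2l1 cross 0.

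Over the 9 pathway lists together, counting each gene once, 91 of 129 genes were tested, and 30 rose and 19 fell, where 19.7% of all genes tested rose and 18.2% fell. The median log2 fold change was 0.14 against -0.0037 over all genes tested. The Cd68 level moved with the groups, rising by 1.20 (SE 0.12), and its part in the changes above was not tested. Of the other leukocyte markers, Ly6g had 1, 1, 6 and 10 counts in library order, Itgam 2, 4, 6 and 10 and Lyz2 3, 6, 13 and 6. Csf1r, with 18.3, 36.5, 35.8 and 27.7 expected counts, did not pass (adjusted p = 0.771), and Ptprc, Adgre1, S100a9, Cd3e, Tyrobp and S100a8 had at most 2 counts in any library.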

How the data were processed

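RNA of 2 NC and 2 KO Hepa1-6 cultures was read with a directional library kit, per the labels' protocols. The submitters' processing notes name FastQC, STAR, RSEM and DESeq2 and the builds GRCm38 and mm10, without versions; annotation release and strand setting are not given in the sources used here. The authors deposited 1 table per library with RSEM expected counts (estimated counts, not scaled), TPM and FPKM, per the file headers. Expected counts were rounded, which changed a library's total by at most 0.000188%. TPM served for levels and as an alternative, and FPKM was not used. RSEM shares reads among similar genes.

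Genes were kept with filterByExpr (minimum count 10), leaving 12510 genes with at least 99.87% of counts, scaled by TMM and compared with edgeR 4.0.16 (R 4.3.3), quasi-likelihood test, two-sided, group as the only term, Benjamini-Hochberg adjustment over all genes tested, threshold 0.05. CPM uses TMM-scaled sizes. The SE comes from the fitted weights and the moderated dispersion; prior degrees of freedom were 25.8. With 2 libraries per group the SD is poorly known, and intervals and the limits for a count of 0 cover counting error and shared spread only, since PCR copies were not separated. Alternatives used limma 3.58.1 and DESeq2 1.42.0. The fits were tested on simulated counts. Coordinates, exons and overlaps come from GENCODE M21 (GRCm38), 1-based, and promoters from RefSeq GRCm38.p6.

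The members and lists were chosen with earlier results of these data known. Named are the members, Acvr2a, ligands and receptors of the IL-6 family, paralogs of members, and the up to 6 genes per list with the lowest p past 0.05; others are named after their values were seen. Markers of hepatocytes, leukocytes, stellate cells and endothelium were listed to check the label. Of 6 endothelial markers 2 were tested and 0 passed, with 0 at an unadjusted p under 0.05 in edgeR. Counts over lists and genes include a few genes that are not reported here by name, and the plots of fold changes show only genes described in the text.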

Additional observations from a re-analysis of the deposited data

How the results depend on the processing

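The 14 alternatives were 3 other scalings, no filter, DESeq2, robust quasi-likelihood, 3 fits on TPM, the replicate block and each library left out. No tested member and none of the 50 called named genes run through them changed direction. The called genes Fgb, Cp, Steap4, Bcl3 and Ccnd1 were not among those 50. Lbp and Stat3 kept their calls in 13 of 14, with log2 fold changes from 1.19 to 1.40 and from 0.60 to 0.77. The exception was limma on log2(TPM + 1) without a filter (adjusted p = 0.0854 and 0.110), which called 0 of 20640 genes, 0 members and 0 pathway genes in either direction, with 4506 genes at an unadjusted p under 0.05. Socs3, Il6ra and Lcn2 passed in none, with log2 fold changes from 0.060 to 0.20, -0.34 to -0.16 and -0.55 to -0.15.

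With filtered TPM and pseudocounts of 1 and 0.1, 2158 and 2099 genes passed against 4741 (1467 and 1427 higher against 2459, 691 and 672 lower against 2282), and pathway genes past 0.05 numbered 32 and 32 against 49, with 10 and 10 lower against 19; the cause was not tested. Leaving out a library gave 3507 to 4488 genes (1831 to 2312 higher, 1656 to 2176 lower), 2 members in each case and 42 to 48 pathway genes (27 to 30 higher, 15 to 19 lower). Of 50 called named genes, DESeq2 kept 43, the filtered TPM fits 37, and leaving out a library 42 to 47. Deviations of same-numbered libraries from their group means had a correlation of -0.0116 across genes, which gave no sign of pairing. With 2 libraries per group this is a single correlation, and it cannot show that the samples were not paired. With the replicate block 5006 genes, 2 members and 51 pathway genes passed. Of the genes 2586 were higher and 2420 lower, and of the pathway genes 30 and 21.

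Depth limits the reading of Lcn2, Hp, Ly96 and the cytokine genes Il6, Il11, Osm, Ctf1, Il27, Ebi3, Il1a, Il1b and Tnf. Their counts were below 40 per library. The lone library left in a group when the other is taken out is assumed to vary like the other group.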
